A study of Mus musculus with 16 samples.

Results

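F4/80- myeloid cells were compared with neutrophils sorted from the same tissue on day 14 after surgery, across every gene of the deposited count table. The comparison uses 4 of the 16 bulk RNA-seq libraries of the series, 2 for each population, chosen by their sample labels and not by any measured value. In the study, C57BL/6 mice (12-week-old males) underwent anterior cruciate ligament reconstruction (ACLR), an operation in which a tendon graft is drawn through bone tunnels in the knee, and the tissue between graft and bone was harvested 1 and 14 days later. Cells were stained and sorted into 4 populations, these 2 and macrophages marked by CD9 or by CX3CR1, and each library came from cells pooled from several mice. The F4/80- gate was live, Lin-, CD45+, Ly6G-, CD11b+ and F4/80-, and the neutrophil gate was live, Lin-, CD45+, CD11b+, Ly6G+ and Ly6C+. Lin- stood for the absence of T, B, NK and red cell markers, and the study also lists CD34 and c-Kit among its lineage markers. All groups had the same strain, operation and tissue, with no genetic change, and all animals were anaesthetised for surgery and given buprenorphine against pain. The gate of the F4/80- cells is defined mainly by what the cells lack, so that it may hold several cell types, and in bulk RNA fewer cells of a type and less RNA per cell cannot be told apart.

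Neutrophils mature in the bone marrow through stages at which different granule proteins are made. Primary granule proteins such as myeloperoxidase and elastase are transcribed early, in promyelocytes, secondary granule proteins such as lactoferrin later, and the gelatinases and chemoattractant receptors last, when the cell no longer divides. Monocytes, dendritic cells, basophils and eosinophils arise from related progenitors and carry CD11b to different degrees without Ly6G, so each can fall into an F4/80- gate, although many eosinophils carry F4/80 and would be removed by it.

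The 4 libraries held 10661077 to 12721779 counts over 20200 genes. The counts were scaled by TMM, which corrects library size for composition, with factors of 1.16 and 1.13 in the F4/80- libraries and 0.781 and 0.766 in the neutrophil libraries. Values per library are given as CPM, the usual per-million scale, relative to the scaled library size. They are not divided by gene length and are therefore compared between libraries and not between genes. The 2 libraries of a group correlated across genes with r = 0.988 in F4/80- cells and 0.985 in neutrophils (Pearson, log2 CPM), and they differed by more than counting error, so none was a copy of the other. Counts from mitochondrial genes made up 9.86% and 10.1% of the F4/80- libraries and 3.88% and 4.32% of the neutrophil libraries, and counts from cytosolic ribosomal protein genes 1.93% and 1.79% against 0.389% and 0.395%. These shares differed between the populations and their part in the results below was not tested.

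The sort antigens were read first, as a check of the labels. Ly6g, which encodes the antigen that separated the gates, was at 8.22 and 10.1 CPM in the F4/80- libraries and 267 and 286 CPM in the neutrophil libraries (log2 fold change -4.92 ± 0.38, edgeR adjusted p = 2.99e-08). Adgre1, the gene of F4/80, was low in both populations, at 8.87 and 9.22 CPM in F4/80- cells and 20.2 and 24 CPM in neutrophils, and was called lower in the F4/80- cells (log2 fold change -1.29). Itgam, which encodes CD11b, and Ptprc, which encodes CD45, were present in all 4 libraries and lower in F4/80- cells. Itgam stood at 186 and 203 against 899 and 877 CPM (log2 fold change -2.19) and Ptprc at 476 and 479 against 2544 and 2509 CPM (log2 fold change -2.40). Ly6c2, a gene of the Ly6C antigen, was at 325 and 318 CPM in F4/80- cells and 348 and 375 CPM in neutrophils and was not called (log2 fold change -0.17 ± 0.21). The 2 antigens of the macrophage gates differed in opposite directions, with Cd9 at 114 and 121 against 346 and 347 CPM (log2 fold change -1.56) and Cx3cr1 at 37.6 and 41.1 against 3.49 and 2.98 CPM (log2 fold change 3.61).

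Of 11998 genes that reached a mean of 3 CPM in at least 1 of the 8 groups and were tested, 5842 (48.7%) differed at an edgeR adjusted p under 0.05 and at least a 2-fold change. Of these, 3286 (27.4% of genes tested) were higher in F4/80- cells and 2556 (21.3%) were lower, and the median log2 fold change over all genes tested was 0.04. The F4/80- and neutrophil values of all 5842 called genes did not overlap between the libraries. The same was true of 89% of all genes tested, so a lack of overlap alone does not mark a called gene. Large differences were frequent, with 970 genes at a log2 fold change of 3 or more and 403 at -3 or less. With 2 pools in each group an exact permutation test of a single gene cannot go below p = 0.333, so each p comes from the spread that edgeR estimated over all 16 libraries, and it measures the spread between pools of mice. Counting error alone sets the floor of 3 counts used below, which was 0.218 and 0.245 CPM in the F4/80- libraries and 0.361 and 0.309 CPM in the neutrophil libraries. At that floor in both libraries of the other group were 441 of the genes called higher and 92 of those called lower, and their fold change is given only as a lower bound.

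**Figure D1:**
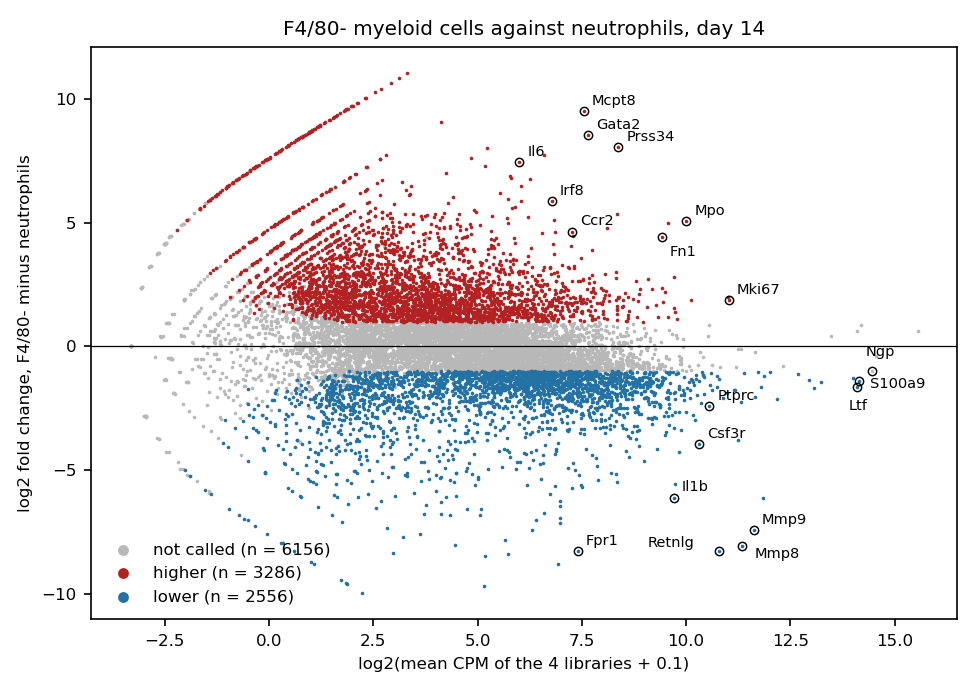
Each point is 1 of the 11998 genes tested, with its mean CPM over the 4 libraries of day 14 on the x axis (log2 of CPM + 0.1) and its log2 fold change, F4/80- minus neutrophils, on the y axis. The 3286 genes called higher are red and the 2556 called lower are blue. Mcpt8, Gata2 and Prss34 lie far above 0 and Mmp8, Retnlg and Fpr1 far below, and the curved rows of points at the left edge are genes with few or no counts in 1 population.

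The granule genes of neutrophils did not all differ in the same direction. All 7 genes of the primary granule and promyelocyte list were higher in F4/80- cells, with a median log2 fold change of 4.80, while the secondary and tertiary granule genes were lower or not called (0 of 11 higher, 9 lower, median -1.67). Mpo, myeloperoxidase, was at 1975 and 1994 CPM in the F4/80- libraries and 74.2 and 44.6 CPM in the neutrophil libraries. It was 33.5-fold higher (log2 fold change 5.07 ± 0.41, edgeR adjusted p = 5.51e-08), and the groups did not overlap. The serine proteases of the same granule showed the same order of libraries. Elane, neutrophil elastase, was at 547 and 519 against 26.9 and 11.8 CPM (log2 fold change 4.80), Prtn3, proteinase 3, at 225 and 216 against 8.55 and 4.22 CPM (5.13), and Ctsg, cathepsin G, at 116 and 107 against 3.73 and 1.03 CPM (5.59). Smaller differences were found for Ms4a3, a marker of granulocyte and monocyte progenitors (86.3 and 85.2 against 10.4 and 7.2 CPM, log2 fold change 3.29), for the ficolin gene Fcnb (2.12) and for the protease gene Prss57 (1.65). In neutrophils all 7 genes were higher in library 1 than in library 2, against 52.7% of all genes tested.

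Secondary granule genes took a large share of the counts in both populations. Ngp, neutrophilic granule protein, was at 14431 and 15634 CPM in F4/80- cells and 29062 and 30183 CPM in neutrophils and was not called (log2 fold change -0.98 ± 0.49, edgeR adjusted p = 0.0869). Camp, the cathelicidin gene, was at 2818 and 3099 against 3361 and 3599 CPM and was not called either (-0.23 ± 0.35). Both genes thus stood within about 2-fold in the 2 populations. Ltf, lactoferrin, was lower at 8006 and 8926 against 26259.7 and 27174 CPM (log2 fold change -1.66 ± 0.51, edgeR adjusted p = 0.01), and Lcn2, lipocalin 2, at 3912 and 4377 against 12613 and 13658 CPM (log2 fold change -1.66). The call of Ltf was lost without F4/80- library 1 (log2 fold change -1.55).

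Other genes of the secondary and tertiary list were further apart. Mmp8, neutrophil collagenase, was at 17.9 and 20.9 CPM in F4/80- cells and 4918 and 5446 CPM in neutrophils. It was 267-fold lower (log2 fold change -8.06 ± 0.36, edgeR adjusted p = 2.53e-10). Mmp9, gelatinase B, was at 28.4 and 44.8 against 6076 and 6430.2 CPM (log2 fold change -7.42), and the membrane proteases Adam8 and Mmp25 were lower with log2 fold changes of -5.56 and -3.72. The libraries of the 2 populations were far apart for each of these 4 genes. Olfm4, olfactomedin 4, which only some neutrophils carry, was at 79.6 and 106 against 426 and 490.1 CPM (-2.30).

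**Figure D2:**
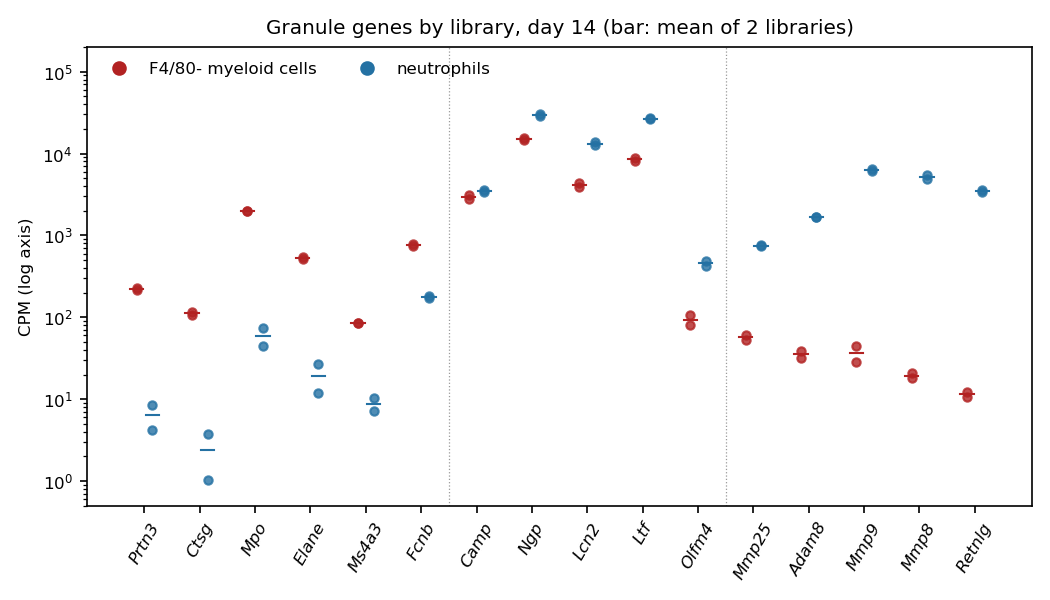
CPM of 16 granule and late neutrophil genes in each of the 4 libraries of day 14 on a log axis, with the mean of 2 libraries as a bar. Genes left of the first dotted line are primary granule genes, which were all higher in F4/80- cells (red). Camp and Ngp, next to that line, were close in both populations, and Mmp8, Mmp9 and Retnlg at the right were more than 100-fold higher in neutrophils (blue).

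Among cytosolic genes of mature neutrophils 10 of 11 were lower and 0 higher, with a median of -5.05 (-4.90 with genes at the floor set to their bound). Retnlg, resistin-like gamma, was at 10.5 and 12.3 CPM in F4/80- cells and 3579 and 3434 CPM in neutrophils (log2 fold change -8.26 ± 0.36, edgeR adjusted p = 2.21e-10). The calgranulin genes S100a8 and S100a9 differed far less. S100a8 was at 5143 and 5224 against 13665 and 14759 CPM (log2 fold change -1.46) and S100a9 at 9543 and 10386 against 25355 and 27764 CPM (-1.41). Without either F4/80- library both calls were lost, at log2 fold changes of -1.41 and -1.43 for S100a8 and -1.32 and -1.44 for S100a9. The stefin genes, inhibitors of cysteine proteases that sit in a cluster of near-identical copies, were low throughout in F4/80- cells, with Stfa2l1 at 0.436 and 0.163 against 100.1 and 111 CPM (-8.39). Their counts are uncertain, because reads can match several copies, and the same holds for Gm5483 and BC100530 of that cluster.

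All 18 genes of the neutrophil receptor list were lower in F4/80- cells, with a median log2 fold change of -3.60 (-3.37 with Cxcr1 at its bound). Csf3r, the receptor of the granulocyte growth factor G-CSF, was at 146 and 164 CPM in F4/80- cells and 2372 and 2403 CPM in neutrophils (log2 fold change -3.94 ± 0.17, edgeR adjusted p = 1.9e-10). Cxcr2, the receptor through which neutrophils leave the marrow and follow CXC chemokines, was at 39.6 and 38.8 against 941 and 1009 CPM (log2 fold change -4.64). Fpr1, a receptor for bacterial formyl peptides, was at 0.727 and 1.47 against 349 and 325 CPM, a difference of 309-fold (log2 fold change -8.27 ± 0.32, edgeR adjusted p = 1.02e-10). The C-type lectin gene Clec4d was likewise at 1.38 and 2.77 against 258 and 241 CPM (-6.92). The smallest differences in the list were those of Cxcr4, a marrow retention receptor (223 and 201 against 461 and 467 CPM, -1.13), and Ltb4r1, a leukotriene receptor (-1.13).

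Basophil genes made up most of the largest differences. Of the 10 called genes with the largest log2 fold change and a mean of at least 20 CPM, 7 were in the basophil and mast cell list, namely Mcpt8, Fcer1a, Gata2, Prss34, Cd200r3, Cpa3 and Cyp11a1. Of 10 list members tested 9 were higher and 1 was lower, beside 27.4% and 21.3% of all genes tested. The median log2 fold change was 8.04 (7.52 with genes at the floor set to their bound). With 3 CPM required in every group only 1 member was tested, and it was lower (-1.87). The 9 higher members were thus tested only because 3 CPM in any 1 group sufficed. The mast cell protease genes of the list, Mcpt4, Cma1, Tpsb2 and Tpsab1, were not analysed here.

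The 250 bases before the start site are printed for 3 of these genes and for 2 granule genes whose difference has the opposite sign, because Gata2, a factor of the basophil lineage, and the C/EBP genes of granulocytes differed between the populations. Sequences are from RefSeq on GRCm38.p6, 5′ to 3′ on the strand of the gene. Capitals mark 2 motifs searched on both strands, GATAA (bound by GATA factors) and TTGCNNAA (bound by C/EBP factors), and no 2 matches overlap in the sequences shown. Both motifs were chosen after the values of the genes had been seen.
Mcpt8, chr14:56085198-56085447, minus strand: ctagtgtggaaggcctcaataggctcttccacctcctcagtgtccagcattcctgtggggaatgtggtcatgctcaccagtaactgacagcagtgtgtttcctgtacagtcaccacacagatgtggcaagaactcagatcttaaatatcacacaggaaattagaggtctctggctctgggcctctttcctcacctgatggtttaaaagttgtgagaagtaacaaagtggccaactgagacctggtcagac
Prss34, chr17:25298144-25298393, plus strand: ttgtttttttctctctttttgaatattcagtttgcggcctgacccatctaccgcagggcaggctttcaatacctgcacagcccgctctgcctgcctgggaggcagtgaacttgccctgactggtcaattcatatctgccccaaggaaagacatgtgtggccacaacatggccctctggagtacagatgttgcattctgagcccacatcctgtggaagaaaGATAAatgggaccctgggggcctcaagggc
Cpa3, chr3:20242182-20242431, minus strand: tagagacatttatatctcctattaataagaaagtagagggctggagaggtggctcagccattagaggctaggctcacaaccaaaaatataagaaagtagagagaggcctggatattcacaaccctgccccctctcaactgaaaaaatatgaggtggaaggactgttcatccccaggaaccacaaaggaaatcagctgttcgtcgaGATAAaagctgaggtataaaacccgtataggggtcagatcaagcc
Mmp8, chr9:7558179-7558428, plus strand: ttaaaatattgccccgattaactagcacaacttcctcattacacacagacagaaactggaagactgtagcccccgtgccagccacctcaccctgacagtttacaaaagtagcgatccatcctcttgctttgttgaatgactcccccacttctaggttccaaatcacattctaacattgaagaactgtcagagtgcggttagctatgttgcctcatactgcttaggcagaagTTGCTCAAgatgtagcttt
Ltf, chr9:111019042-111019291, plus strand: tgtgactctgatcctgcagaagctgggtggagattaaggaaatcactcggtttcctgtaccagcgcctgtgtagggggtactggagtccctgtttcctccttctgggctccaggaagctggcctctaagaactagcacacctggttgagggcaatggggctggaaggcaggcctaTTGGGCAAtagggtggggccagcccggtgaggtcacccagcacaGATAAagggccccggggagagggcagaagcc
GATAA stood once in the sequences of Prss34, Cpa3 and Ltf, and TTGCNNAA once in those of Mmp8 and Ltf. Neither was in that of Mcpt8. Over the 27025 genes with a sequence, 25.5% held GATAA and 10.8% held TTGCNNAA in at least 1 of their start sites. Of the 10 basophil and mast cell genes tested, 5 held GATAA and 4 held TTGCNNAA, of the 9 secondary and tertiary granule genes with a sequence (of 11 tested), 2 held GATAA and 5 held TTGCNNAA, and of the 16 neutrophil receptor genes with a sequence (of 18 tested), 5 held GATAA and 1 held TTGCNNAA. These counts of letters in a window are a description and were not tested.

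Mcpt8, the protease that defines mouse basophils, was at 392 and 354 CPM in the F4/80- libraries and at 1.08 and 0 CPM in the neutrophil libraries, where it had 9 and 0 counts (log2 fold change 9.51 ± 0.52, edgeR adjusted p = 1.29e-09). Prss34, a second basophil protease, was at 705 and 607 against 2.77 and 2.16 CPM and 267-fold higher (log2 fold change 8.06 ± 0.38). Cpa3, carboxypeptidase A3 of basophil and mast cell granules, was at 207 and 179 against 1.45 and 0.412 CPM (7.74). In all 3 genes both neutrophil libraries were below 3 CPM. The transcription factor gene Gata2 was at 398 and 403 against 1.2 and 0.926 CPM (log2 fold change 8.56 ± 0.47, edgeR adjusted p = 1.45e-09). Of the 2 IgE receptor subunits in the list, Ms4a2 was at 161 and 142 against 1.45 and 1.34 CPM (6.76), and Fcer1a, at 34.7 and 34.4 CPM in F4/80- cells and 0 and 1 counts in neutrophils, was at least 103-fold higher. Il4, the type 2 cytokine of basophils, was at 6.62 and 8.81 CPM in F4/80- cells with no count in neutrophils, which is at least 23-fold higher. The exception was Hdc, the enzyme that makes histamine, at 285 and 275 CPM in F4/80- cells and 1223 and 1144 CPM in neutrophils (log2 fold change -2.08 ± 0.25, edgeR adjusted p = 3.77e-06). Outside the list Il6 was far higher too, with 133 and 122 against 0.843 and 0.617 CPM (7.44), as did Gria3, a glutamate receptor subunit, which was at least 169-fold higher, and Adgrg1, an adhesion receptor (35.6 and 39.1 against 0.482 and 0.103 CPM, 7.02).

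Monocyte genes were higher for the most part. Of 13 tested 9 were higher and 2 lower, with a median log2 fold change of 3.02. Not all 9 higher calls held without neutrophil library 2, where the median was 2.28, and it was 4.27 without neutrophil library 1. With 3 CPM required in every group 9 genes were tested, of which 5 were higher and 2 lower, with a median of 1.42. Ccr2, the receptor by which monocytes enter inflamed tissue, was at 321 and 268 CPM in F4/80- cells and 16 and 7.72 CPM in neutrophils (log2 fold change 4.65 ± 0.27, edgeR adjusted p = 2.01e-09). F13a1, coagulation factor XIII, was at 689 and 575 against 21.1 and 10.3 CPM (log2 fold change 5.34), Ms4a6c at 152 and 135 against 5.18 and 2.57 CPM (5.23) and Fn1, fibronectin, at 1354 and 1252 against 77.3 and 44.1 CPM (4.43). In neutrophils, 10 of the 13 genes were higher in library 1 than in library 2, among them each of these 4. Csf1r, the receptor of the macrophage growth factor, did not follow them, at 125 and 119 against 113 and 113 CPM (log2 fold change 0.11 ± 0.19, not called). The 2 genes that were lower were Nr4a1 (239 and 268 against 875 and 930.4 CPM, -1.83) and Treml4 (4.22 and 4.16 against 30.6 and 35.4 CPM, -2.98).

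Macrophage genes were low in both populations. The summed level of the list was 98.3 to 102 CPM in F4/80- cells and 118 to 126 CPM in neutrophils. Of 13 tested 3 were higher, 3 lower and 7 not called, beside 27.4% higher and 21.3% lower among all genes tested. Without neutrophil library 2 only 1 was lower. The complement genes C1qa and C1qb, defining markers of tissue macrophages, had at most 3 counts in each F4/80- library. Mrc1, the mannose receptor, was at 8.73 and 8.16 against 1.45 and 1.03 CPM (log2 fold change 2.78), and Cd68, a lysosomal protein of phagocytes, at 47.2 and 41.7 against 44.3 and 48 CPM (-0.05 ± 0.20, not called).

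Dendritic cell and antigen presentation genes were higher. Of 11 conventional dendritic cell genes tested 9 were higher and 0 lower, with a median of 4.37 (4.27 with genes at the floor set to their bound). Some of these calls were lost without any 1 of the 4 libraries, where the median was 4.32 to 5.36. With 3 CPM required in every group only 1 gene of the list was tested, and it was not called (-0.27). The 9 higher genes were thus tested only because 3 CPM in any 1 group sufficed. Flt3, a growth factor receptor of progenitors and dendritic cells, was at 29.8 and 29.9 CPM in F4/80- cells and 0.843 and 0.72 CPM in neutrophils (log2 fold change 5.25 ± 0.50, edgeR adjusted p = 3.14e-07). Cd209a, a lectin of monocyte-derived and conventional dendritic cells, was at 22.3 and 18.4 CPM in F4/80- cells and at the floor in neutrophils, at least 60.6-fold higher, and Kmo, an enzyme of tryptophan breakdown, was at least 60-fold higher. Itgax, which encodes CD11c, was not called, at 19.7 and 20.8 against 29.6 and 27 CPM (log2 fold change -0.48 ± 0.23). All 3 plasmacytoid dendritic cell genes tested were higher, but not all 3 calls held without neutrophil library 1 or 2. Siglech, a receptor of those cells, was at 4.58 and 3.92 CPM with no count in neutrophils (at least 12.7-fold). In the MHC class II list 11 of 14 genes were higher and 1 was lower, with a median of 3.40. H2-Aa and H2-Ab1, the chains of the I-A molecule, were at 88.1 and 113 against 9.76 and 8.34 CPM (3.48) and at 115 and 140.0 against 15.1 and 10.4 CPM (3.33). Ciita, the coactivator that switches on these genes, was at 16.5 and 18 against 0.964 and 0.309 CPM (log2 fold change 4.79 ± 0.40, edgeR adjusted p = 7.27e-08). The costimulatory ligand gene Cd80 was the 1 that was lower (4.07 and 3.84 against 36.6 and 34.8 CPM, -3.17), while Cd86 was level, at 9.67 and 10.1 against 9.88 and 9.57 CPM (0.03 ± 0.18, not called).

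**Figure D3:**
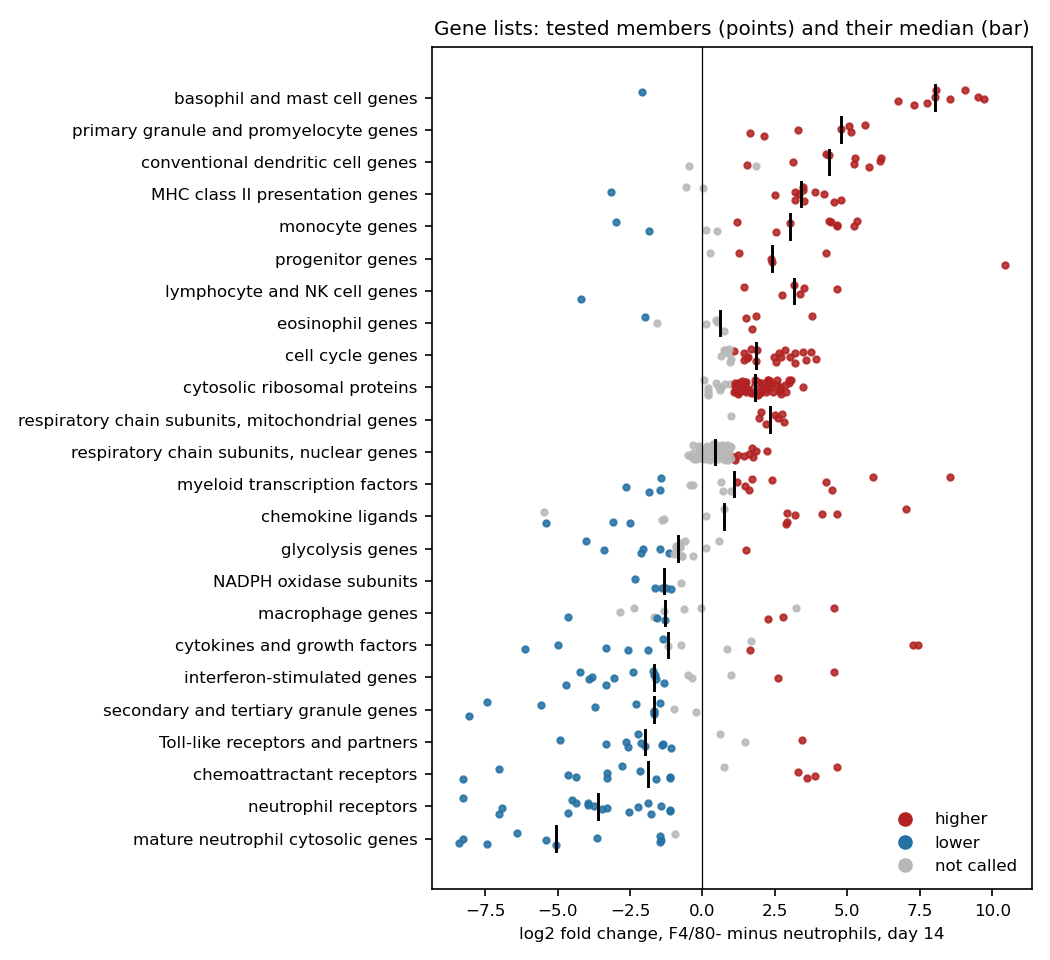
Log2 fold change, F4/80- minus neutrophils, of every tested member of 24 gene lists on day 14, with each list's median as a black bar. Red points were called higher, blue points lower and grey points were not called. The basophil and mast cell list has a median of 8.04 with Hdc alone below 0, and the 18 neutrophil receptors all lie below 0.

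Markers of other blood and tissue cells were read in the same way. Of 10 eosinophil genes 4 were higher and 1 was lower, with a median of 0.62, beside 27.4% and 21.3% of all genes tested, and without neutrophil library 2 only 1 was higher. The granule genes Epx (15.9 and 26.2 against 8.79 and 6.28 CPM, 1.48) and Prg2 (42.6 and 65.3 against 16.3 and 13.7 CPM, 1.85) were higher, the ribonuclease gene Ear2 was lower (14.4 and 10.3 against 45 and 53.5 CPM, -1.99), and Siglecf, the usual surface marker, was not called (18.6 and 21.1 against 13.5 and 14.6 CPM, 0.50 ± 0.28). The call of Epx was lost without F4/80- library 2 (log2 fold change 1.12), without neutrophil library 1 (1.74) or without neutrophil library 2 (1.25), and that of Prg2 without neutrophil library 2 (1.73). Of the 6 progenitor genes tested 5 were higher. Cd34, a stem and progenitor antigen, was at 14.8 and 10.3 CPM in F4/80- cells with no count in neutrophils, at least 37.5-fold higher, while Kit, which encodes c-Kit, was at 61.7 and 76.9 against 54 and 62 CPM (0.26 ± 0.40, not called). The study lists both antigens among the lineage markers of its gate, and their RNA was present in the sorted F4/80- cells. Klrb1c, an NK cell antigen gene, had no count in the 4 libraries. Sox4, a factor of progenitors, was at 12.8 and 12.8 against 0.361 and 0.926 CPM (4.26).

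In the lymphocyte list 6 of 7 tested genes were higher, 5 of them genes of B and plasma cells, beside 27.4% of all genes tested. Not all 6 calls held without F4/80- library 1 or neutrophil library 2, where the list median was 2.80 and 2.88. With 3 CPM required in every group only 1 gene was tested, and it was higher (1.64). Igkc, the kappa light chain, was at 355 and 218 CPM in F4/80- cells and 35.8 and 28.5 CPM in neutrophils (log2 fold change 3.16 ± 0.49, edgeR adjusted p = 4.48e-05), and Jchain, the chain that joins IgM and IgA, at 136 and 73.1 against 10.2 and 10.3 CPM (3.35). The 2 F4/80- pools differed from each other by more than 1.5-fold for both. The defining B cell genes Ms4a1, Cd79a and Pax5 did not reach 3 CPM in any population, and the T cell gene Cd3d was at 0.436 and 0.326 against 8.67 and 5.76 CPM (-4.20). Nkg7, of cytotoxic lymphocytes and some myeloid cells, was at 30.8 and 24.6 against 1.32 and 0.926 CPM (4.62). Of 8 erythroid and platelet genes tested, Itga2b, integrin alpha IIb, was called, at 76 and 74.7 against 6.14 and 2.68 CPM (4.12), while the platelet chemokine genes Pf4 and Ppbp stayed under 2 CPM in all 4 libraries. Of 7 stromal and endothelial genes 1 was higher, Pecam1 (62.8 and 58.8 against 12 and 14.2 CPM, 2.21), which leukocytes also carry, and 1 lower, Col1a1 (2.47 and 3.02 against 15.8 and 14.6 CPM, -2.47), whose call was lost without any 1 of the 4 libraries (-2.29 and -2.57 without F4/80- library 1 or 2, -2.41 and -2.52 without neutrophil library 1 or 2). In the osteoclast list 2 of 8 were higher and 2 lower. These counts and those of the erythroid and stromal lists stand beside 27.4% higher and 21.3% lower among all genes tested. Acp5, which encodes the phosphatase TRAP, was at 4.51 and 8.41 against 0.241 and 1.44 CPM (2.85).

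The transcription factors of the myeloid lineages differed in both directions. Of 18 tested 9 were higher, 4 lower and 5 not called, with a median log2 fold change of 1.09. Among all genes tested 27.4% were higher and 21.3% lower. Irf8, the factor that directs progenitors to monocytes and dendritic cells and away from granulocytes, was at 223 and 208 CPM in F4/80- cells and 4.94 and 2.47 CPM in neutrophils, 59.1-fold higher (log2 fold change 5.88 ± 0.23, edgeR adjusted p = 1.02e-10). Klf4, a monocyte factor, was at 324 and 269.6 against 18.5 and 8.54 CPM (log2 fold change 4.47), and Irf4, a factor of dendritic cells, at 21.7 and 23 against 1.32 and 1.03 CPM (4.25). Among the C/EBP factors the early Cebpa was higher (122 and 121 against 46.6 and 41.5 CPM, 1.46), Cebpe, which acts in secondary granule synthesis, was not called (119 and 130.3 against 155 and 160.2 CPM, -0.34 ± 0.27), and the late Cebpb (243 and 228 against 1532 and 1410.2 CPM, -2.64) and Cebpd (-1.44) were lower. Spi1, which encodes PU.1, was lower at 251 and 249 against 683 and 684 CPM (-1.45). Gfi1, a repressor needed in granulocyte development, was at 37.9 and 42.2 against 26 and 23.1 CPM and was not called (0.71 ± 0.26).

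Chemokine and cytokine genes differed in both directions. Of 15 chemokine ligands 7 were higher and 3 lower, with a median of 0.75 (0.12 with genes at the floor set to their bound). These shares stand beside 27.4% and 21.3% of all genes tested. The sign of the median rested on 1 library, since it was -0.36 without F4/80- library 1 (5 higher), and it was 1.36 without F4/80- library 2, 2.42 without neutrophil library 1 and 1.82 without neutrophil library 2. The CC ligands Ccl3 and Ccl4, which attract monocytes and lymphocytes, were higher, at 491 and 455 against 66.1 and 59.5 CPM (log2 fold change 2.91 ± 0.26, edgeR adjusted p = 1.38e-07) and at 166 and 152 against 23.7 and 18.9 CPM (2.90). Ccl9 was at 234 and 213 against 10 and 7.82 CPM (4.65) and Ccl2, the ligand of CCR2, at 34.4 and 29.5 against 2.29 and 1.44 CPM (4.11). Cxcl2, a neutrophil attractant, and Ccl6 were lower, at 10.6 and 11.2 against 466 and 452 CPM (-5.40) and 239 and 223 against 1288 and 1309 CPM (-2.49). Of 13 cytokine and growth factor genes 3 were higher and 6 lower, beside the same 27.4% and 21.3%. Il1b, interleukin 1 beta, was at 22.3 and 25.2 CPM in F4/80- cells and 1623 and 1653 CPM in neutrophils, 69-fold lower (log2 fold change -6.11 ± 0.22, edgeR adjusted p = 8.53e-11), and its antagonist Il1rn was lower too, at 9.82 and 10 against 311 and 315 CPM (-4.98). Osm, oncostatin M, was at 218 and 195 against 813 and 712 CPM (-1.88). Csf1, the macrophage growth factor, was higher at 176 and 178 against 56.6 and 57.3 CPM (1.63). Tnf was not called at 58.9 and 60.4 against 99.7 and 101 CPM (-0.75 ± 0.23).

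Receptors and effectors of phagocytes were mostly lower in F4/80- cells. Of 16 chemoattractant receptors 4 were higher, including Ccr2, Cx3cr1 and C3ar1, and 11 lower, with a median of -1.89. All list counts of this paragraph stand beside 27.4% higher and 21.3% lower among all genes tested. Ccr1, a receptor of Ccl3 and Ccl6, was at 62.5 and 69.3 against 664 and 642 CPM (-3.31). Of 13 Toll-like receptor genes and partners 10 were lower and 1 higher, with a median of -2.00. Tlr2, which senses lipoproteins, was at 43.3 and 40.8 against 259.8 and 246 CPM (-2.59), Tlr13, which senses bacterial ribosomal RNA, at 33.5 and 34 against 346 and 336 CPM (-3.34) and Cd14 at 49.7 and 51.7 against 245 and 226 CPM (-2.22). The 1 that was higher was Tlr9, the receptor for unmethylated DNA, at 19.3 and 15.5 against 1.81 and 1.44 CPM (log2 fold change 3.43 ± 0.31, edgeR adjusted p = 1.45e-07). Of 6 NADPH oxidase genes 5 were lower and 0 higher, with a median of -1.33. The catalytic subunit gene Cybb was at 1649 and 1796 against 3544 and 3797 CPM (-1.09), a call that was lost without F4/80- library 1 (log2 fold change -0.995). Among 6 Fc receptor genes 2 were higher and 3 lower, beside 27.4% and 21.3% of all genes tested. Not both higher calls held without neutrophil library 2. Fcgr4 was at 5.82 and 7.26 against 77.7 and 79.4 CPM (-3.59). Of 9 eicosanoid enzymes 1 was higher, Alox15 (39.9 and 46.3 against 2.53 and 3.7 CPM, 3.77), and 5 were lower, including Ptgs2, cyclooxygenase 2 (72.5 and 68.1 against 778 and 756 CPM, -3.45), and Pla2g7, which inactivates platelet activating factor (2.47 and 3.26 against 242 and 256 CPM, -6.44). Of 17 interferon-stimulated genes 12 were lower and 2 higher, with a median of -1.69. Rsad2, which encodes viperin, was at 1.96 and 2.12 against 54 and 52.7 CPM (-4.70), whereas Mx1 was higher, at 14.3 and 14.2 against 0.482 and 0.72 CPM (4.53).

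Genes of growth and division were higher in F4/80- cells. Of 27 cell cycle genes 20 were higher and 0 lower, with a median log2 fold change of 1.83. Mki67, the proliferation marker, was at 3126 and 3386 CPM in F4/80- cells and 944 and 833 CPM in neutrophils (log2 fold change 1.87 ± 0.22, edgeR adjusted p = 2.08e-06). Among genes of DNA replication were Mcm2 at 211 and 215 against 18.5 and 13.1 CPM (3.76), Mcm6 at 409 and 400.2 against 32.3 and 21.4 CPM (3.92) and Tyms, thymidylate synthase, at 67.5 and 66.6 against 5.66 and 6.28 CPM (3.48). The 7 genes that were not called act in mitosis, such as Cdc20, at 57.4 and 54.8 against 31.8 and 35.4 CPM (0.74 ± 0.18), and with library size alone all 27 were called higher. All 27 genes had counts in both neutrophil libraries.

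Of 81 cytosolic ribosomal protein genes tested 69 were higher and 0 lower, with a median of 1.80. Many of these genes have processed copies elsewhere in the genome that can take their reads, so single genes are not given. Of the 8 respiratory chain genes encoded in mitochondria 7 were higher, with a median of 2.35, for example mt-Nd1 at 971 and 930.4 against 142 and 141 CPM (2.75). Of 76 subunits encoded in the nucleus 9 were higher and 0 lower, with a median of 0.44 (0.34 to 0.50 when 1 library was left out). The share higher was smaller than the 27.4% of all genes tested. More of them were called higher without neutrophil library 2. Of 20 glycolysis genes 6 were lower and 1 higher, beside 21.3% and 27.4% of all genes tested, with a median of -0.83. The higher call did not hold without F4/80- library 1 or neutrophil library 1. The largest differences were those of 2 transporters, the glucose carrier Slc2a3 (158 and 169 against 1764 and 1650.5 CPM, -3.39) and the lactate exporter Slc16a3 (52.9 and 56.4 against 916 and 839 CPM, -4.01). Gapdh and Ldha stood just inside 2-fold, at log2 fold changes of -0.92 and -0.97, and were not called (without neutrophil library 1, Ldha was called at -1.03). Among 15 cell death and survival genes 2 were higher and 6 lower, beside 27.4% and 21.3% of all genes tested. Mcl1, the survival factor on which neutrophils depend, was at 519 and 485 against 1981 and 1909 CPM (-1.95) and Bcl2 at 23.6 and 26.5 against 5.42 and 4.43 CPM (2.35). Of 9 nuclear envelope genes 2 were higher and 2 lower, beside 27.4% and 21.3% of all genes tested. Lmna, lamin A, which neutrophils lose as they mature, was at 10.6 and 12.7 against 2.89 and 2.68 CPM (2.06).

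At the other end of the table, the 10 called genes with the smallest log2 fold change and a mean of at least 20 CPM were Gpr27, Ankrd33b, Gm5483, Stfa2l1, Fpr1, Retnlg, Mmp8, Vnn3, Arg2 and Mcam. Ankrd33b was at 0.436 and 0.653 CPM in F4/80- cells and 241 and 242 CPM in neutrophils (log2 fold change -8.78 ± 0.55, edgeR adjusted p = 4.13e-09). Arg2, the mitochondrial arginase, was at 0.218 and 0.653 against 103 and 96.2 CPM (-7.85). For Gpr27, an orphan receptor, Vnn3, a vanin, and Mcam, an adhesion molecule, F4/80- cells were at the floor, and the differences were at least 305-fold, 187-fold and 104-fold lower. The genes that took the most counts were largely shared. Both lists of 10 held the mitochondrial ribosomal RNA genes mt-Rnr1 and mt-Rnr2, Gm26917 and Gm23935, together with Ngp, S100a8, S100a9, Ltf and Actb. Actb, beta actin, was lower in F4/80- cells, at 9539.5 and 9751 against 22715 and 23444 CPM (-1.26).

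The same 2 populations had been sorted on day 1 in other pools, which allowed a test of whether the difference of day 14 was there early. On day 1, 5882 genes (49%) were called, 3169 higher (26.4%) and 2713 lower (22.6%). In the same direction on both days were 4508 genes, which are 77.2% of the day 14 calls and 76.6% of the day 1 calls, and 46 genes were called in opposite directions. The difference itself changed between days, by the interaction test at the same thresholds, for 928 genes (7.73% of those tested), of which 751 (6.26%) moved towards F4/80- cells on day 14 and 177 (1.48%) towards neutrophils. Of the 928 genes, 628 were called on day 14. Without neutrophil library 2 of day 14 the number fell to 600.

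Of 15 chemokine ligands 6 moved towards F4/80- cells and 0 the other way, where 6.26% of all genes tested moved towards them. On day 1 Ccl3 was at 497 and 409.7 CPM in F4/80- cells and 1509.8 and 3037 CPM in neutrophils, the reverse of the order on day 14, and the change in the log2 difference was 5.24 ± 0.36 (edgeR adjusted p = 4.98e-07). Ccl4 changed by 4.71 and Csf1 by 4.26, with Csf1 at 156 and 149 against 688 and 1192 CPM on day 1. In these 3 genes the neutrophil level was lower on day 14 than on day 1 in both pools. Monocyte genes also moved, 7 of 13 towards F4/80- cells and 0 the other way. Fn1 was at 1393 and 1301 against 684 and 582 CPM on day 1 and its difference changed by 3.34, and that of Ccr2 changed by 2.30. The F4/80- level of Fn1 was similar on both days, and its neutrophil level was lower on day 14. The 5 largest changes by the naming rule were in Gpc3, Il23a, Ppp1r13l, Fam129b and Mif. Gpc3, glypican 3, was at 98.8 and 73 CPM in neutrophils on day 1 and had no count there on day 14, and Mif, a cytokine, went from 175 and 189 to 1.57 and 0.926 CPM in neutrophils. The change of Il23a was 7.74 and lost its call without F4/80- library 1 (5.23), with 3 counts in each neutrophil library and 12 and 1 in the F4/80- libraries on day 14.

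Genes of neutrophil granules and of mature neutrophils were among those that moved the other way. Mmp8 was at 164 and 136 CPM in F4/80- cells on day 1 and 17.9 and 20.9 CPM on day 14, while neutrophils held 3767 and 2476 and 4918 and 5446 CPM, so that its difference changed by -3.69 ± 0.39 (edgeR adjusted p = 2.06e-05). Mmp9 (-3.98), Retnlg (-3.91), Fpr1 (-3.92), Stfa2l1 (-3.98), Cep295nl (-3.98) and Gpr27 (-5.40) changed in the same direction. The immunoglobulin genes were further apart on day 1, and the differences of Igkc, Jchain and Iglc1 changed by -2.72, -3.82 and -8.98. Some of these calls rested on single libraries of day 14. That of Stfa2l1 was lost without F4/80- library 1 (-4.88) or 2 (-3.51) and without neutrophil library 1 (-4.06) or 2 (-3.90), that of Gpr27 without F4/80- library 1 (-4.43), that of Igkc without F4/80- library 2 (-2.43) or neutrophil library 1 (-2.55) or 2 (-2.88), and that of Iglc1 without neutrophil library 1 (-8.06). No change between days was called for the 10 basophil and mast cell genes, the 7 primary granule genes and the 27 cell cycle genes, at a share of 7.73% over all genes tested, and the uncalled change of Mcpt8 was 2.19 ± 0.87. Il1b had log2 fold changes of -6.12 on day 1 and -6.11 on day 14.

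**Figure D4:**
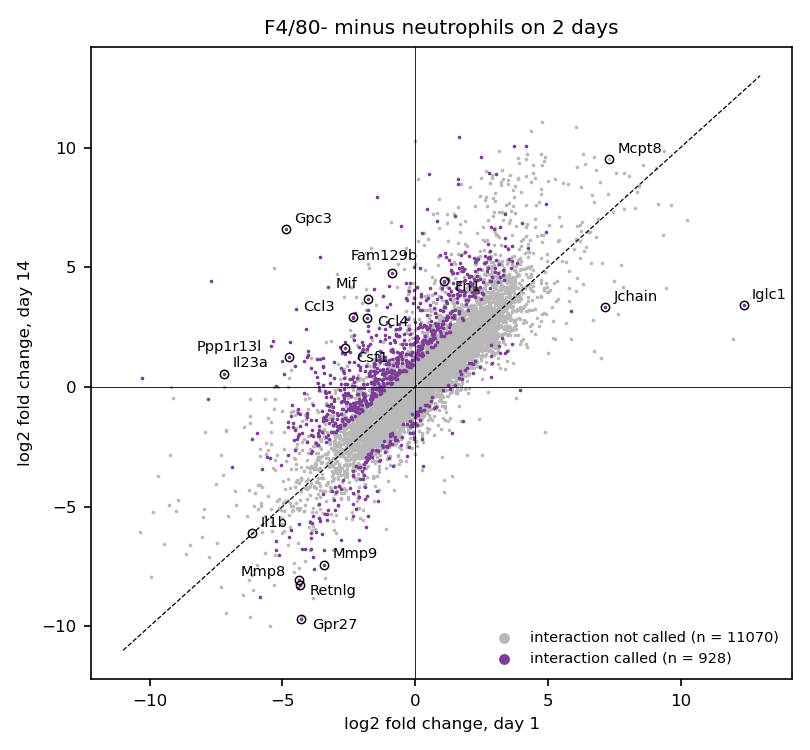
Log2 fold change of each of the 11998 genes tested, F4/80- minus neutrophils, on day 1 (x axis) and on day 14 (y axis), with the line of equal change dashed. The 928 genes whose difference changed between days are purple. Ccl3, Ccl4 and Csf1 lie left of 0 on day 1 and above 0 on day 14, Mmp8 and Retnlg lie below the line, and Il1b lies on it.

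The split between higher and lower calls depended on the scaling. With library size alone 4573 genes were higher and 1320 lower, so that 77.6% of the calls were higher in place of 56.2%, and the median over all genes tested moved up by 0.56. With upper quartile scaling 3787 were higher and 1953 lower, and the median moved up by 0.25. RLE scaling gave 3235 higher and 2625 lower, and DESeq2 gave 3282 higher and 2669 lower. The median of the nuclear envelope list changed sign with library size alone, from -0.49 to 0.08, with 3 genes higher and 0 lower. The medians of the other lists named here kept their sign under all 4 alternatives, but some counts moved: with library size alone 37 of 76 nuclear respiratory chain genes were higher in place of 9, 2 NADPH oxidase genes were lower in place of 5, and S100a8, S100a9, Ltf, Adgre1, Cd9, Cxcr4, Ltb4r1, Col1a1, Cebpd, Spi1, Cybb and Actb were not called.

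**Figure D5:**
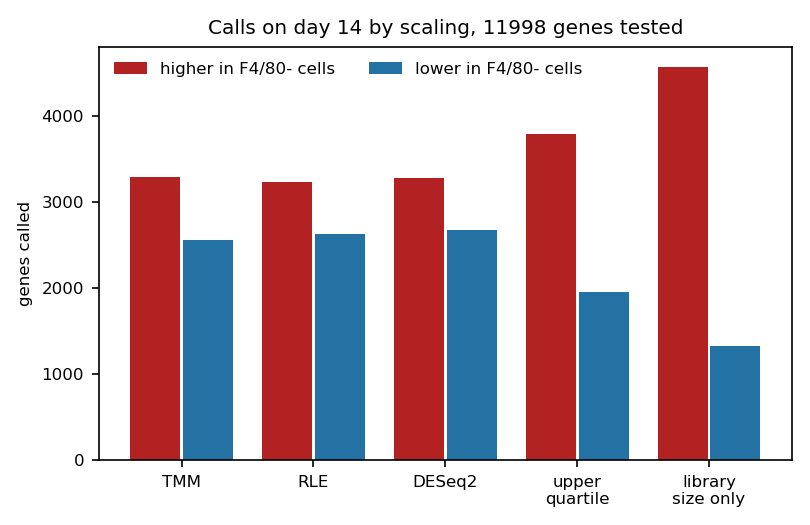
Number of genes called higher (red) and lower (blue) in F4/80- cells on day 14 under 5 scalings of the same counts, out of 11998 genes tested. TMM, RLE and DESeq2 give 3235 to 3286 higher and 2556 to 2669 lower, while library size alone gives 4573 and 1320.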

How the data were processed

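Bulk RNA-seq libraries (SMART-Seq Stranded kit) of 4 myeloid populations on days 1 and 14 after ACLR were analysed from the deposited table of raw read counts per gene, which the authors made by trimming adapters, aligning reads with STAR to the mm10 genome and counting over Gencode genes. The table gives whole-number counts with no normalization. Samples were grouped by their labels into 8 groups of 2 libraries. Genes with a group mean of at least 3 CPM in 1 of the 8 groups were kept, the counts were scaled by TMM, and edgeR 4.0.16 (quasi-likelihood test, all 16 libraries, no covariate) gave F4/80- minus neutrophils on day 14, the same on day 1 and the interaction. Genes were called at a Benjamini-Hochberg p under 0.05 when the log2 difference was also 1 or more in size, and ± is the standard error of the log2 fold change. The common biological coefficient of variation was 0.178.

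The genes named were those of 34 lists (sort antigens, cell type markers, pathways), the 10 largest and 10 smallest called differences at a mean of at least 20 CPM, the 10 genes with the most counts in each group, and the 5 largest and 5 smallest interactions. The members and lists were chosen with earlier results of these data known. Replicates come from separate pools of mice, so p-values measure the spread between pools. The number of mice the study gives is too small for a separate pool behind each library, so populations of a day probably shared pools. Whether equal replicate numbers mark a shared pool is not stated, and deviations of same-numbered libraries on day 14 correlated at 0.064, so the number was used as a block only in an alternative. The tests were first tried on simulated counts. The alternatives were other scalings, DESeq2 1.42.0, other filters, fewer libraries, a replicate block, other thresholds and leaving out each library. Promoter sequences were taken from RefSeq. Floors cover counting error only. A few genes of the lists are not reported here by name.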

Additional observations from a re-analysis of the deposited data

Results flagged for a closer look

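The difference between F4/80- cells and neutrophils was not the same on both days for 928 genes, by the interaction test of edgeR (day 14 minus day 1, adjusted p under 0.05 and a change of at least 1 on the log2 scale). The values below are that change in the log2 difference for each such gene named above, positive where the balance moved towards F4/80- cells on day 14. Such a change does not tell by itself whether the level moved in F4/80- cells, in neutrophils or in both.

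Genes of monocytes and macrophages moved towards F4/80- cells, namely Ccr2 (2.30), F13a1 (2.97), Ms4a6c (2.57), Fn1 (3.34), Csf1r (1.64), Cx3cr1 (2.43), C3ar1 (2.29), Cd68 (1.41) and Cd14 (2.33). Lineage factors and the DNA receptor gene Tlr9 moved in the same direction, namely Irf8 (2.23), Klf4 (2.12), Cebpa (1.57) and Tlr9 (2.85). The same held for the chemokine, cytokine and interferon response genes Ccl2 (3.56), Ccl3 (5.24), Ccl4 (4.71), Ccl9 (2.56), Csf1 (4.26), Tnf (3.08) and Mx1 (2.07). For Gpc3 (11.46), Il23a (7.74), Ppp1r13l (6.02), Fam129b (5.64) and Mif (5.44) the neutrophil libraries of day 1 were above those of day 14. Other genes that moved this way were Cd34 (8.77), Lmna (2.06), Cd9 (1.09), Siglecf (1.67), Acp5 (3.21), Pecam1 (1.25) and Gria3 (2.70).

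Genes of neutrophil granules and of mature neutrophils moved the other way, namely Mmp8 (-3.69), Mmp9 (-3.98), Mmp25 (-1.38), Adam8 (-2.26), Retnlg (-3.91), Stfa2l1 (-3.98) and Fpr1 (-3.92). So did Ankrd33b (-2.96), Mcam (-3.78), Gpr27 (-5.40), Cep295nl (-3.98), BC100530 (-3.64) and Pla2g7 (-1.20), and the immunoglobulin genes Igkc (-2.72), Jchain (-3.82) and Iglc1 (-8.98). For Cd34 and Gpc3 neutrophils had no count on day 14, for Il23a and Gria3 neutrophils and for Gpr27, Mcam and BC100530 F4/80- cells were at the floor on that day, and the fitted changes of these genes are no bound on their size. The same holds for Iglc1, with no count in neutrophils on day 1. The calls of several of these changes were lost when 1 library of day 14 was left out. For C3ar1 (2.15 to 2.43), Cebpa (1.49 to 1.66), Mx1 (1.83 to 2.40), Gria3 (2.55 to 2.89), BC100530 (-4.67 to -3.03) and Stfa2l1 (-4.88 to -3.51) this was so without any 1 of the 4 libraries. The call of Lmna was lost without F4/80- library 2 or either neutrophil library (1.91 to 2.11), and that of Igkc likewise (-2.88 to -2.43). Those of Ankrd33b (-2.71 and -3.28) without F4/80- library 1 or 2, of Mcam without F4/80- library 1 (-2.79) or neutrophil library 2 (-3.49), of Siglecf without F4/80- library 2 (1.56), of Iglc1 without neutrophil library 1 (-8.06), and of Gpr27 (-4.43), Il23a (5.23) and Mmp25 (-1.32) without F4/80- library 1 were lost too. Sorts on the 2 days were separate, so the day and the sort cannot be told apart.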

How the results depend on the processing

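With 2 pools per group and 10661077 to 12721779 counts each, genes under the floor of 3 counts give bounds only. When each of the 4 libraries of day 14 in turn was left out, between 5295 and 5503 genes were called on day 14, of which 2951 to 3174 were higher and 2188 to 2437 lower, and 5802 to 5856 on day 1. The number of changes between days then ranged from 600 (without neutrophil library 2) to 725. Requiring 3 CPM in every group tested 7687 genes and called 2956 on day 14 (1597 higher, 1359 lower), 3058 on day 1 and 549 for the change between days, with fewer genes tested by construction. With library size alone 1320 genes were lower, without a minimum fold change 4001 were lower, and glmTreat at a fold of 1.5 called 532 changes between days. The shift of the median under each scaling is given in the report.

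Whether libraries of the same number came from the same pool of mice is not stated, and a correlation of 0.064 between their deviations does not settle it. A replicate block within each day called 5839 genes on day 14 (3279 higher, 2560 lower), 5787 of them shared with the fit without it, 5868 on day 1 and 958 changes between days. Of 150 genes named with a fold change on day 14, 124 kept their side of the thresholds under every alternative that tested them, and none turned direction after a call. Of 48 changes between days 9 to 11 lost their call when 1 library was left out, 12 under glmTreat and 0 to 2 under the other alternatives.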
